A study of Homo sapiens with 6 samples.

Results

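Brush border digestive enzymes are described here in T84 cells, a line established from human colorectal cancer, by RNA-seq. The members are the 9 genes ANPEP, DPP4, MME, MEP1A, TMPRSS15, SI, LCT, ALPI and ALPP, taken by name from a table of 58735 genes. The series has 6 libraries: 3 from cells with a control short hairpin RNA (shControl; genotype labelled WT) and 3 from cells with a hairpin against ACSL4 (shACSL4; labelled a knockdown, although the design text speaks of a knockout). ACSL4 activates long-chain polyunsaturated fatty acids, and the series title sets the comparison within work on immunosuppression in colorectal cancer. All libraries came from the same line, which carries no other labelled change. The hairpins, the confluence of the dishes and the independence of a group's libraries have no label, so the p-values rest on the spread between these libraries, and that spread may be technical.

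The brush border is the layer of microvilli on the apical face of absorptive enterocytes. Its membrane carries peptidases, disaccharidases and phosphatases, anchored as ectoenzymes that finish digestion at the cell surface. Most of these enzymes are abundant in the small intestine and sparse in the colon, and several are used as markers of enterocyte differentiation, among them in cultured colorectal cancer cells. RNA levels of the genes were measured, not enzyme activity.

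Library totals ranged from 14740383 to 17620630 counts. Levels are CPM, counts relative to a TMM-scaled library size, given as mean ± SD over 3 libraries, and 3 counts corresponded to 0.171 to 0.202 CPM. ACSL4, the targeted gene, was at 72.0 to 75.5 CPM in the shControl libraries and at 9.12 to 11.1 CPM in those of shACSL4. All 12 intestinal epithelial markers were detected, with summed levels of 8211 to 9545 CPM in shControl and 9191 to 10584 CPM in shACSL4. The sum hides opposite moves. KRT8, KRT18, KRT19, KRT20, VIL1 and CDX1 were higher in shACSL4 and EPCAM, CDH17 and GPA33 lower (adjusted p under 0.05, edgeR's quasi-likelihood test). CDH1, CDX2 and LGALS4 did not pass that threshold. The summed level of 8 leukocyte markers was 25.0 to 39.0 CPM in shControl and 9.01 to 11.8 CPM in shACSL4, with CD3E at 0, and 4 of the 8 averaged at least 10 counts. Fibroblast markers summed to at most 4.37 CPM, with PDGFRA and THY1 at 0, and endothelial markers to at most 1.31 CPM, with KDR at 0.

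The enzymes differed widely in abundance. Per length, as deposited FPKM, DPP4 was the most abundant at 17.6 ± 1.28 in shControl and 25.0 ± 1.63 in shACSL4 (SD, n = 3). MEP1A followed at 6.48 ± 0.576 and 3.84 ± 0.572 FPKM (SD, n = 3). ALPI came next in shControl at 0.745 ± 0.191 FPKM, above ANPEP at 0.464 ± 0.0964 FPKM (SD, n = 3), and the values of these neighbours did not overlap. In shACSL4 their order was turned, with ANPEP at 3.40 ± 0.271 FPKM and ALPI at 0.856 ± 0.188 FPKM (SD, n = 3). ANPEP there overlapped with MEP1A, so that the order of those neighbours is not resolved. ALPP was at 0.0536 ± 0.0514 and 0.351 ± 0.0691 FPKM and SI at 0.00966 ± 0.0167 and 0.167 ± 0.0302 FPKM in shControl and shACSL4 (SD, n = 3). ALPP and SI overlapped in shControl and were separate in shACSL4. LCT, MME and TMPRSS15 stood at or near 0 in both groups. In bulk libraries such as these, a smaller share of cells with a transcript and less of it per cell cannot be told apart.

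**Figure D1:**
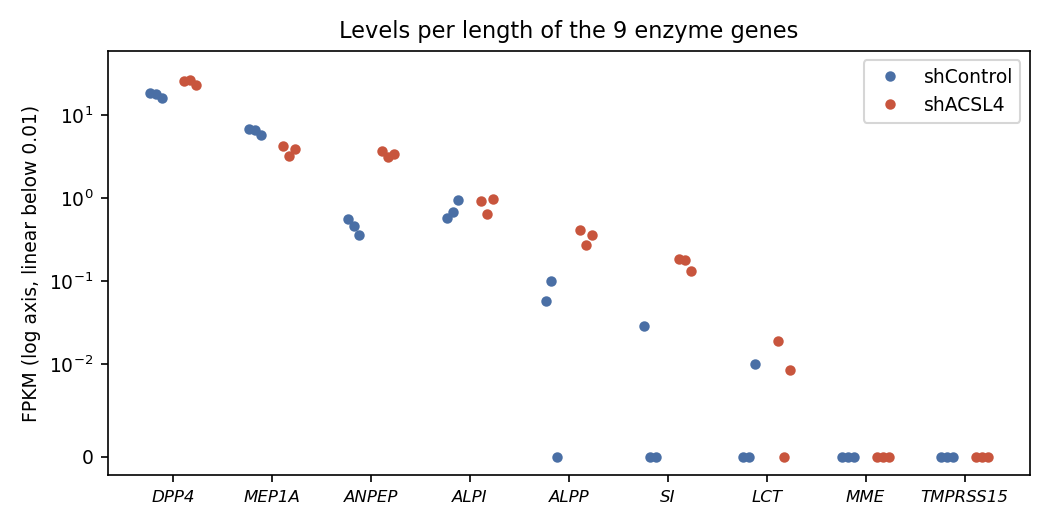
Deposited FPKM (vertical axis, logarithmic above 0.01 and linear below) of the 9 enzyme genes; each point is a library, 3 shControl (blue) and 3 shACSL4 (red). DPP4 and MEP1A lie highest, ANPEP is the gene whose red points stand farthest above the blue ones among those over 0.1 FPKM in every library, and MME and TMPRSS15 lie at 0 in all libraries.

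Of the 9 members, 4 rose (ANPEP, DPP4, ALPP and SI), 1 fell (MEP1A), and ALPI was tested and not called, with a threshold of 0.05 on the adjusted p of edgeR's quasi-likelihood test. LCT, MME and TMPRSS15 were below the count filter. Over all 15694 genes tested, 47.2% were called, 24.0% as higher and 23.1% as lower in shACSL4. Scaled by library size alone, 65.6% of all calls were higher in shACSL4 against 50.9% here, the median of all genes moved from 0.01 to 0.13, and the direction of each called member was kept. ALPP and SI passed the count filter through their shACSL4 libraries alone, so the count of members called is given as a description. In the authors' deposited table the log2 fold changes were 2.87 for ANPEP, 0.51 for DPP4, 2.70 for ALPP, 4.05 for SI, 0.20 for ALPI and -0.76 for MEP1A. The groups did not overlap for the 5 called members, as for 55.1% of all tested genes, and shACSL4 stood above for 4 of them, as for 28.3% of all tested genes.

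**Figure D2:**
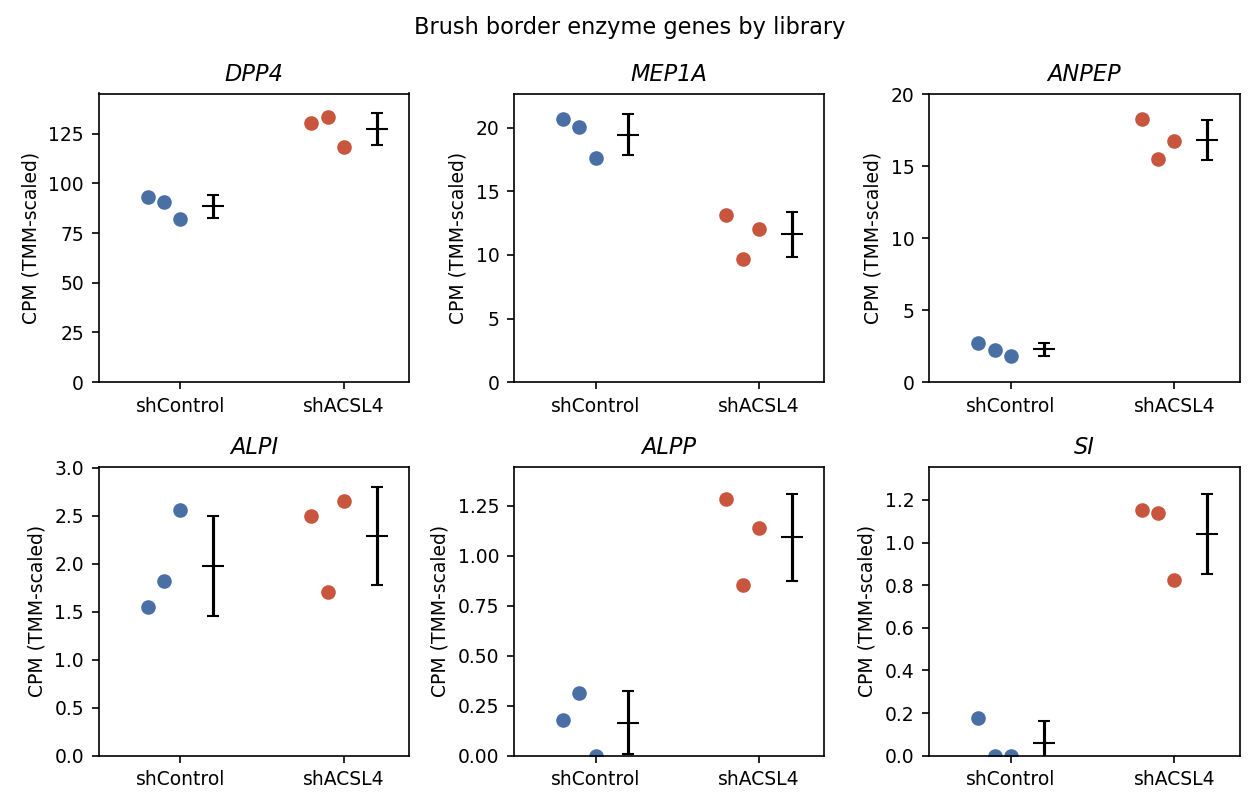
CPM on TMM-scaled library sizes (vertical axes, from 0, a separate scale for each gene) of the 6 tested enzyme genes; points are libraries, horizontal ticks with bars the mean ± SD over 3 libraries. The groups are separate for DPP4, MEP1A, ANPEP, ALPP and SI, with MEP1A alone lower in shACSL4, and they overlap for ALPI.

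Among the exopeptidases, ANPEP showed the larger fold. ANPEP (ENSG00000166825; GRCh38 chromosome 15, 89784889 to 89815401, minus strand) encodes aminopeptidase N, also called CD13, a zinc enzyme that removes neutral amino acids from the N-terminus of peptides. It measured 2.74, 2.26 and 1.82 CPM in the 3 shControl libraries, in replicate order, against 18.3, 15.5 and 16.8 CPM in those of shACSL4. Every shACSL4 library thus stood far above every shControl library, and within each group the values lay close together. The mean went from 2.27 ± 0.461 to 16.8 ± 1.39 CPM (SD, n = 3), a fold of 7.35 (log2 fold change 2.88, SE 0.18, adjusted p = 1.6e-09 in edgeR's quasi-likelihood test). Of all tested genes, 72 had a larger log2 fold change. On log2(FPKM + 1), which shrinks folds of low values, the change was 1.59.

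The gene has a start near the coding sequence, known from intestinal epithelium, and an upstream start known from myeloid cells and fibroblasts. Counts per gene do not tell transcripts of these starts apart. The windows around both RefSeq starts (GRCh38.p14, minus strand, 250 bases before to 50 after the start) are shown because reads from either start enter the same count. Both windows were searched for 3 motifs on either strand, and in every window shown capitals mark letters that match one. The CDX motif was TTTATG, found in 10.6% of 35116 RefSeq windows of the same length. The GATA motif was AGATAA, found in 10.3%. The HNF4 motif was AAAGTCC, found in 3.71%. No match overlapped another in the windows shown.
ANPEP upstream window, chr15:89814803-89815102: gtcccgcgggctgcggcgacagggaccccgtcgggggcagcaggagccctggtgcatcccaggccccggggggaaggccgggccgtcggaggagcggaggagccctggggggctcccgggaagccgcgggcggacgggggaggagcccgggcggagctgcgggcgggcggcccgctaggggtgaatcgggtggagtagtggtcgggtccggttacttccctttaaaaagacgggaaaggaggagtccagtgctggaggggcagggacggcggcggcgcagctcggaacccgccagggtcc
ANPEP downstream window, chr15:89806579-89806878: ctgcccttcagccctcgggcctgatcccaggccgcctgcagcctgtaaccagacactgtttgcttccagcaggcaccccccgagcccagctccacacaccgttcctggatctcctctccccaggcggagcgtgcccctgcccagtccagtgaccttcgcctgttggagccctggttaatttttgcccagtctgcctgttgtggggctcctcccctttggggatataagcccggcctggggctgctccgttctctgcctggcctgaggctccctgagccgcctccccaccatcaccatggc
The upstream window had a GC content of 75.0%, and the downstream window, whose start is 8224 bases from the upstream one, had 65.3%. Neither held any of the 3 motifs, which says only that these letters are not in these windows. GTTAAT, which was not searched for, does stand in the downstream window. It also stands in the SI and TMPRSS15 windows, on the strand opposite to the gene. Its share over all windows was not determined.

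DPP4 (ENSG00000197635; chromosome 2, 161992241 to 162074542, minus strand) encodes dipeptidyl peptidase 4, or CD26, which removes dipeptides after proline or alanine and inactivates incretin hormones. It measured 92.9, 90.8 and 81.8 CPM in the 3 shControl libraries, in replicate order, against 131, 134 and 118 CPM in those of shACSL4. The groups were separate, with every shACSL4 library above every shControl library. The mean went from 88.5 ± 5.86 to 127 ± 8.14 CPM (SD, n = 3), a fold of 1.44 (log2 fold change 0.53, SE 0.09, adjusted p = 0.000116 in edgeR's quasi-likelihood test). Of all tested genes, 2930 had a larger log2 fold change. The antisense gene AC008063.1 overlaps DPP4 and had at most 14 counts in a library. The RefSeq window of DPP4 had a GC content of 75.0% and held none of the 3 motifs.

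Of the endopeptidases, MEP1A fell, and MME and TMPRSS15 had no reads. MEP1A (ENSG00000112818; chromosome 6, 46793390 to 46839782, plus strand) encodes the alpha subunit of meprin, a zinc metalloprotease of the astacin family. It measured 20.6, 20.0 and 17.6 CPM in the 3 shControl libraries, in replicate order, against 13.1, 9.69 and 12.0 CPM in those of shACSL4. Every shACSL4 library was below every shControl library. Of the 50-base stretches in MEP1A transcripts, 3.83% also occurred in other genes, so a small part of its reads may be split, while ANPEP, DPP4 and SI had no such stretch. The mean went from 19.4 ± 1.60 to 11.6 ± 1.76 CPM (SD, n = 3), with 0.596 times the control level in shACSL4 (log2 fold change -0.75, SE 0.14, adjusted p = 0.000259 in edgeR's quasi-likelihood test). MEP1B, the gene of the beta subunit that anchors meprin in the membrane, had 2, 8 and 3 reads in the control libraries against 20, 14 and 8 in the knockdown and was below the filter. In an edgeR fit with no filter its adjusted p was 0.0400, and by DESeq2 it was 0.109. The no-filter value cannot be set beside those of the main fit, as described for ENPEP below.

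MME (ENSG00000196549; chromosome 3, 155024124 to 155183729) encodes neprilysin, or CD10, which cleaves short regulatory peptides. TMPRSS15 (ENSG00000154646; chromosome 21, 18269116 to 18485879) encodes enteropeptidase, the duodenal protease that activates trypsinogen. Both had 0 counts in all 6 libraries, which allows a level of up to 0.171 to 0.202 CPM per library, for counting error only. The TMPRSS15 window had a GC content of 31.7%, and neither it nor any of the 4 windows of MME held one of the 3 motifs searched.

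Of the disaccharidases, SI was close to absent in shControl and low in shACSL4. SI (ENSG00000090402; chromosome 3, 164978898 to 165078495, minus strand) encodes sucrase-isomaltase, which splits sucrose and the branch points of starch products. It drew 3, 0 and 0 reads from the shControl libraries, in replicate order, against 18, 20 and 13 from those of shACSL4. Reads were found in every shACSL4 library and in a single shControl library. The mean went from 0.0595 ± 0.103 to 1.04 ± 0.188 CPM (SD, n = 3). The ratio of the summed reads, 51 against 3 and scaled to library size, was 16.5 with an exact 95% interval of 5.35 to 82.8, for counting error only. The log2 fold change was 3.89 (SE 0.73, adjusted p = 0.000329 in edgeR's quasi-likelihood test). Without shControl replicate 1, which held all control reads, it was 7.06, a value that depends on the prior count, and without shControl replicate 2 or 3 it was 3.36 or 3.39. On log2(FPKM + 1) the change was 0.21. Of the genes tested, 0.707% had a lower mean CPM than SI.

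The SI window is shown because sucrase-isomaltase is a textbook target of CDX2 in enterocytes, and matches of the CDX motif are in capitals.
SI window, chr3:165078447-165078746 (GRCh38.p14, minus strand): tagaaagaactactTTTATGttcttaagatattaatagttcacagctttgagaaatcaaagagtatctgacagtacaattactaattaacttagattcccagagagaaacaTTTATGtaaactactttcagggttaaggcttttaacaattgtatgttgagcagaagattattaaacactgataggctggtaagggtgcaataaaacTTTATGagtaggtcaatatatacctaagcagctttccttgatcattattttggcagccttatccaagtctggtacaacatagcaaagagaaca
It had a GC content of 32.7%, and 2.36% of all windows had a lower one. TTTATG occurred 3 times, beginning 236, 139 and 43 bases before the start. The share of 10.6% given above is of windows with any match. The share with 3 matches, or among windows of like GC content, was not determined. Such a match is a description of the letters and not of a bound site.

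LCT (ENSG00000115850; chromosome 2, 135787840 to 135837180, minus strand) encodes lactase, which splits milk sugar and is lost after weaning in many people. It had 0, 0 and 1 reads in the control libraries against 2, 0 and 1 in the knockdown, too few for a difference to be detectable at this depth. MGAM, the maltase-glucoamylase relative of SI, had 6, 5 and 0 reads in the control libraries against 12, 6 and 10 in the knockdown, below the filter as well (adjusted p = 0.232 with no filter).

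The phosphatases ALPI and ALPP lie in a cluster on chromosome 2 with ALPG. ALPI (ENSG00000163295; 232456123 to 232460032, plus strand) encodes intestinal alkaline phosphatase, which removes phosphate from bacterial lipopolysaccharide. It measured 1.55, 1.82 and 2.56 CPM in the 3 shControl libraries, in replicate order, against 2.50, 1.71 and 2.66 CPM in those of shACSL4. The groups overlapped, with shControl replicate 3 above the shACSL4 replicates 1 and 2. The means were 1.97 ± 0.522 and 2.29 ± 0.508 CPM (SD, n = 3), with a log2 fold change of 0.21 (SE 0.31, adjusted p = 0.593 in edgeR's quasi-likelihood test). The ratio of summed reads, 111 against 93, was 1.16 (exact 95% interval 0.873 to 1.55, for counting error only).

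ALPP (ENSG00000163283; 232378534 to 232382889, plus strand) encodes placental alkaline phosphatase, a close relative also made by some tumour cells. It drew 3, 5 and 0 reads from the shControl libraries, in replicate order, against 20, 15 and 18 from those of shACSL4. The lowest shACSL4 library held 3 times the reads of the highest shControl library. The mean went from 0.164 ± 0.157 to 1.09 ± 0.218 CPM (SD, n = 3; log2 fold change 2.64, SE 0.60, adjusted p = 0.00178 in edgeR's quasi-likelihood test). The log2 fold change was 3.42 without shControl replicate 2, 2.10 without shControl replicate 3 and 0.36 on log2(FPKM + 1). Placental markers summed to at most 1.21 CPM in any library, and CGA was at 0.

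These genes are near-identical in part, so the split of their reads is uncertain. Of the 50-base stretches in ALPP transcripts, 23.6% also occurred in ALPG, and of the 100-base stretches 12.7% did. For ALPI, 1.45% of the 50-base stretches occurred in ALPP and none of the 100-base stretches did. ALPG itself had 0, 1 and 0 reads in the control libraries against 3, 8 and 1 in the knockdown and was below the filter. Reads of ALPI, ALPP and ALPG together do not depend on how counted reads were split among them. Shared reads dropped in counting, if any were, would be missing from this sum too. It came to 1.73, 2.20 and 2.56 CPM in the shControl libraries, in replicate order, against 3.98, 3.02 and 3.86 CPM in those of shACSL4. The sums did not overlap. ALPP held 10.3% (exact Clopper-Pearson 95% interval 2.19% to 27.4%) and 14.7% (4.95% to 31.1%) of the reads of ALPI and ALPP in shControl replicates 1 and 2. In shControl replicate 3 it held 0 of 38 reads, with an exact upper bound of 9.25%, and the limit of 3 counts allows up to 7.89%. In shACSL4 replicates 1, 2 and 3 the share was 33.9% (22.1% to 47.4%), 33.3% (20.0% to 49.0%) and 30.0% (18.8% to 43.2%). ALPL, the tissue-nonspecific relative, had at most 7 counts in a library.

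**Figure D3:**
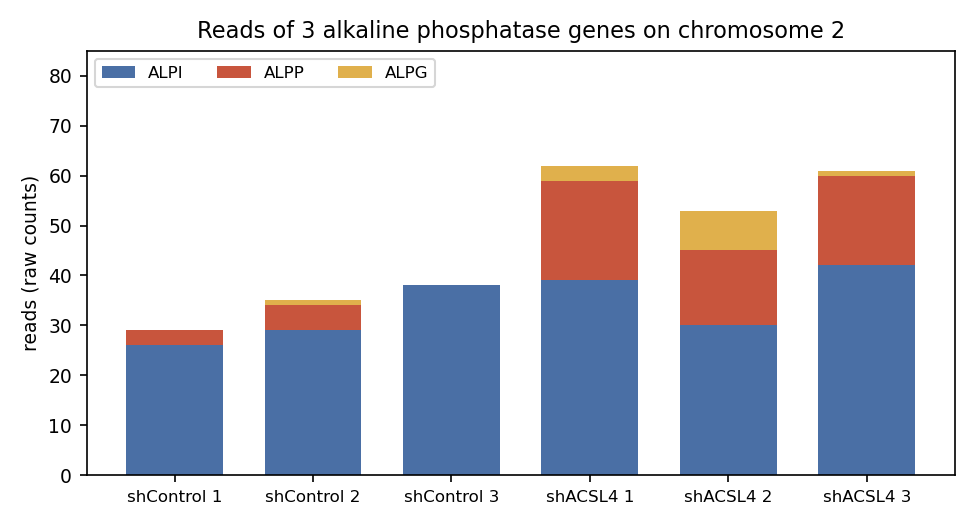
Raw read counts (vertical axis) of ALPI, ALPP and ALPG stacked for each of the 6 libraries. The stacks reach 29, 35 and 38 reads in shControl and 62, 53 and 61 reads in shACSL4, and most of the gap is in ALPP.

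The windows of ALPI and ALPP are shown side by side because ALPP was called higher and its neighbour ALPI was not called.
ALPI window, chr2:232455903-232456202 (GRCh38.p14, plus strand): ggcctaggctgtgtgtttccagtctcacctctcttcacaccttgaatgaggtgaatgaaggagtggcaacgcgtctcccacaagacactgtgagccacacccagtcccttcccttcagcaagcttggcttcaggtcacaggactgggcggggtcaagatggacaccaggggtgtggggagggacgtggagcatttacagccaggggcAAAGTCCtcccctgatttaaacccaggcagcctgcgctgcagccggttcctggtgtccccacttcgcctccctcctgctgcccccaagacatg
ALPP window, chr2:232378501-232378800 (GRCh38.p14, plus strand): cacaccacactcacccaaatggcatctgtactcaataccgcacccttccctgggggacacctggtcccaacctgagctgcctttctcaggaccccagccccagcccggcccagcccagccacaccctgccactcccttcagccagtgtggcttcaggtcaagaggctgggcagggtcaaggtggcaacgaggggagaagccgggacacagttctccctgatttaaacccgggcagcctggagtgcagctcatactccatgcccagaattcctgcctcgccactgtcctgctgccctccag
In a global alignment 56.0% of the columns were identical, against 82.7% between ALPP and ALPG. The ALPI window held AAAGTCC, beginning 43 bases before the start, and the ALPP window held none of the 3 motifs. In all, RefSeq windows were matched for 7 of the 9 members.

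As a sum, the 9 enzymes took 118, 115 and 104 CPM in the shControl libraries, in replicate order, against 167, 162 and 152 CPM in those of shACSL4. DPP4 made up 77.9% to 82.2% of that sum in every library. MEP1A went from 17.0% to 17.5% in shControl to 5.97% to 7.93% in shACSL4, and ANPEP from 1.75% to 2.32% to 9.55% to 11.1%. ANPEP and MEP1A thus changed places as the second-largest contributor. These shares are of reads and are not corrected for length.

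**Figure D4:**
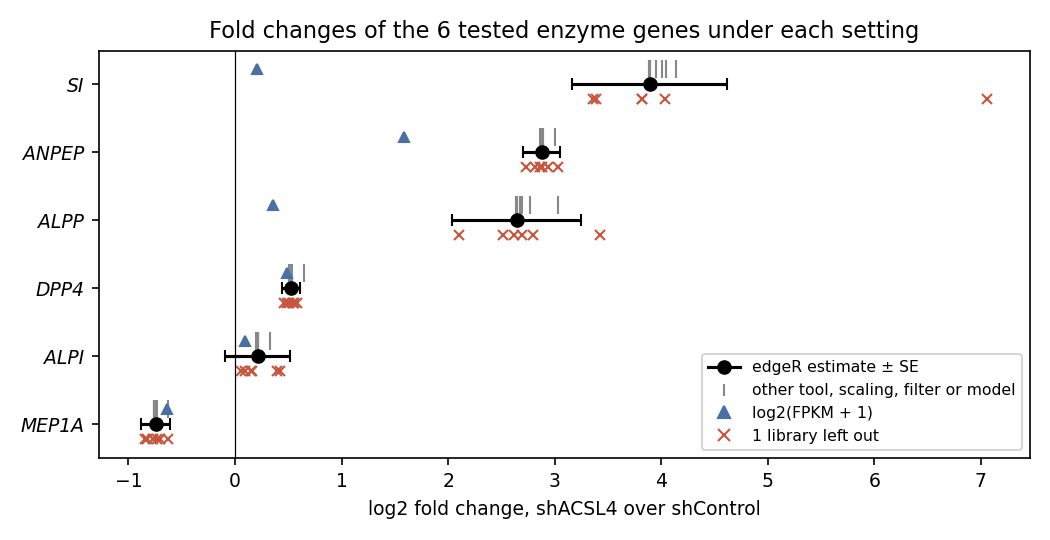
Log2 fold change of shACSL4 over shControl (horizontal axis) for the 6 tested enzyme genes; black points with bars are the edgeR estimate ± SE, grey ticks other tools, scalings, filters and models, blue triangles log2(FPKM + 1), red crosses fits with 1 library left out. Every mark lies on the same side of 0 as its estimate, and the widest scatter belongs to SI and ALPP, the genes with the fewest reads.

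DPP4, ANPEP and MME are also surface markers of leukocytes. Of the 8 leukocyte markers, whose sums are given above, LYZ, ITGAM and CD14 were called lower in shACSL4, and PTPRC, CSF1R, CD68 and CD3E were below the filter. LYZ, a lysozyme gene that intestinal epithelium can also express, had 227 to 381 counts in the control libraries and 65 to 86 in the knockdown. PTPRC, which encodes the pan-leukocyte antigen CD45, had 5 to 11 counts in shControl and 2 or 3 in shACSL4. CSF1R, the receptor gene of macrophages, went the other way, with 1 or 2 counts in shControl and 5 to 14 in shACSL4. CD68 had at most 1 count and CD3E none. The part of these markers in the values of the enzymes was not tested. On the chromosome, the 20 tested genes nearest to ANPEP had a median log2 fold change of -0.47, with 11 called lower and 2 higher. Over all tested genes 23.1% were called lower and 24.0% higher. Near the other members the counts lower and higher were 8 and 6 for DPP4, 4 and 6 for ALPI, 5 and 5 for ALPP, 4 and 7 for SI, and 6 and 7 for MEP1A. The median of the 20 nearest genes was -0.09 for DPP4, -0.03 for ALPI and for ALPP, 0.03 for SI and 0.04 for MEP1A.

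The coding genes whose log2 CPM followed a member most closely over the 6 libraries were IFT52 and ZNF69 for ANPEP, DCTN1 and AP5S1 for DPP4, PTK2B and KIAA1211 for SI, TAF1B for ALPP, TMEM92 and HDAC1 for MEP1A, and ANAPC4 and DCLRE1A for ALPI. Pearson's r ran from 0.967 to 0.999. With 2 groups behind the 6 values such likeness is common: 1016 of 10922 coding genes had an r above 0.95 with ANPEP, and 3 of 10923 with ALPI.

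Other hydrolases of the brush border mostly had few reads or were lower in shACSL4. For this list and those below, the shares over all tested genes were 24.0% called higher and 23.1% called lower. Of 16 listed genes 6 were tested, 3 fell and 0 rose (edgeR; 1 higher at an unadjusted p under 0.05, 1 with DESeq2, limma-voom, library size alone, the replicate block or without shACSL4 replicate 3, 2 without shControl replicate 2, and 3 with no filter; median log2 fold change -0.53, against 0.01 over all genes). MGAM2, a maltase-glucoamylase relative, measured 106, 48.4 and 101 CPM in the 3 shControl libraries, in replicate order, against 34.8, 29.9 and 32.3 CPM in those of shACSL4 (log2 fold change -1.39, SE 0.20). shControl replicate 2 stood far below the other control libraries. GGT1, a gamma-glutamyltransferase, changed by -0.53, and trehalase TREH, named after its values were seen, by -1.51. ENPEP, a glutamyl aminopeptidase of the same M1 family as ANPEP, had 0 counts in all shControl libraries and 5, 7 and 5 in shACSL4. Against an assumed 3 counts over the control group the ratio was 5.51. That ratio leaves out the counting error of the shACSL4 reads and is no lower bound. ENPEP was below the filter. Its adjusted p was 0.00661 in an edgeR fit with no filter and 0.0149 with DESeq2. Adjusted p of the no-filter fit cannot be set beside those of the main fit. For ANPEP edgeR's quasi-likelihood test gave 1.2e-51 with no filter and 1.6e-09 in the main fit, and for DPP3 0.0568 and 0.0166.

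Called relatives of the peptidases were mostly lower in shACSL4, except among those of DPP4. Of 11 other M1 aminopeptidases, the family of ANPEP, 8 were tested, 4 fell and 1 rose (2 higher with DESeq2, library size alone, no filter, or without shControl replicate 2 or shACSL4 replicate 2; 3 lower with library size alone or against a fold of 1.2; median -0.23). ERAP1 (-0.73) and ERAP2 (-0.59), which trim peptides for class I presentation, fell, as did NPEPPS (-0.50) and LTA4H (-0.34), both named after their values were seen, and AOPEP rose (0.57). Of 8 relatives of DPP4, 6 were tested, and DPP3 rose (0.26) and DPP7 fell (-0.23). DPP3 lost its call on leaving out shControl 1 or shControl 3 (adjusted p 0.0652 and 0.0694) or shACSL4 1 or shACSL4 2 (0.0552 and 0.0771), with no filter (0.0568) and against a fold of 1.2 (0.457) in edgeR. DPP7 lost its call on leaving out shControl 1 (0.0541) or shACSL4 1 or shACSL4 2 (0.104 and 0.103), with library size alone (0.265) and against a fold of 1.2 (0.586). The count higher was 2 with library size alone, with genes averaging 50 counts or more and with coding genes alone, and the count lower was 2 without shControl replicate 2. FAP, the chromosomal neighbour and closest relative of DPP4, had at most 3 counts in a library.

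In the neprilysin family, 2 of 6 genes besides MME were tested and both fell, with 0 higher (edgeR; 0 at an unadjusted p under 0.05 and 0 with DESeq2). PHEX changed by -1.97 (-0.71 on log2(FPKM + 1)) and the endothelin-converting enzyme ECE1 by -0.52. Of 11 transmembrane serine proteases related to TMPRSS15, 6 were tested, 4 fell (3 to 5 over the alternatives) and 0 rose (edgeR; 0 at an unadjusted p under 0.05 and 0 with DESeq2; median -0.45). The falls were in matriptase ST14 (-0.54), TMPRSS2 (-0.49), prostasin PRSS8 (-0.41) and, named after its values were seen, TMPRSS3 (-1.29).

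Brush border nutrient transporters, which take up the products of the enzymes, moved in both directions. Of 12 listed genes 8 were tested, 4 rose and 2 fell (2 and 1 among genes averaging 50 counts or more; median 0.57). SLC6A19 had 3, 3 and 1 reads in shControl against 63, 37 and 64 in shACSL4, and SLC3A1 16, 6 and 7 against 24, 28 and 32. Both passed the count filter through their shACSL4 libraries, so the count of rises and the median are given as a description. The called rises were in amino acid transporters. SLC6A20 went from 15.7 ± 0.446 to 166 ± 12.6 CPM (SD, n = 3; log2 fold change 3.40), SLC36A1 changed by 0.64, and SLC6A19 (4.46) and SLC3A1 (1.49), named after their values were seen, were low. The called falls were in the sugar transporters SLC5A1, from 30.5 ± 1.13 to 12.2 ± 0.837 CPM (SD, n = 3; -1.32), and SLC2A5 (-1.18), the latter named after its values were seen. SLC15A1, also named after its values were seen, was below the filter. It had 6, 14 and 5 reads in the control libraries against 0, 1 and 3 in the knockdown.

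Of 16 transcription factors known from digestive enzyme genes, 13 were tested, 8 rose and 1 fell (5 higher against a fold of 1.2, and 2 lower without shACSL4 replicate 2; median 0.28). Over all tested genes 24.0% were called higher and 23.1% lower, and the list itself was not tested as a set. HNF4A went from 132 ± 7.48 to 216 ± 27.4 CPM (SD, n = 3; log2 fold change 0.71, SE 0.10), KLF5 changed by 0.80, KLF4 by 0.77 and PDX1 by 1.68 (0.88 on log2(FPKM + 1)). ELF3, named after its values were seen, fell (-0.51). CDX2 was at 0.18 and not called (adjusted p = 0.0928, and 0.00499 at 0.30 with library size alone, in edgeR's quasi-likelihood test). GATA6 was called at 0.24 (adjusted p = 0.0317). It lost that call on leaving out shControl 1 or shControl 3 (0.157 and 0.101) or shACSL4 1 or shACSL4 2 (0.0684 and 0.143), with no filter (0.0830), against a fold of 1.2 (0.549) and with DESeq2 (0.0606).

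All 12 genes of apical delivery and retention were tested, and 3 rose and 3 fell (1 lower against a fold of 1.2; median 0.07). MYO1A, the brush border myosin, went from 20.0 ± 1.42 to 55.2 ± 2.96 CPM (SD, n = 3; log2 fold change 1.46, SE 0.10), and the microvillus genes CDHR2 (0.84) and VIL1 (0.47) rose. RAB11A (-0.46), EZR (-0.41) and CDHR5 (-0.33), named after their values were seen, fell.

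**Figure D5:**
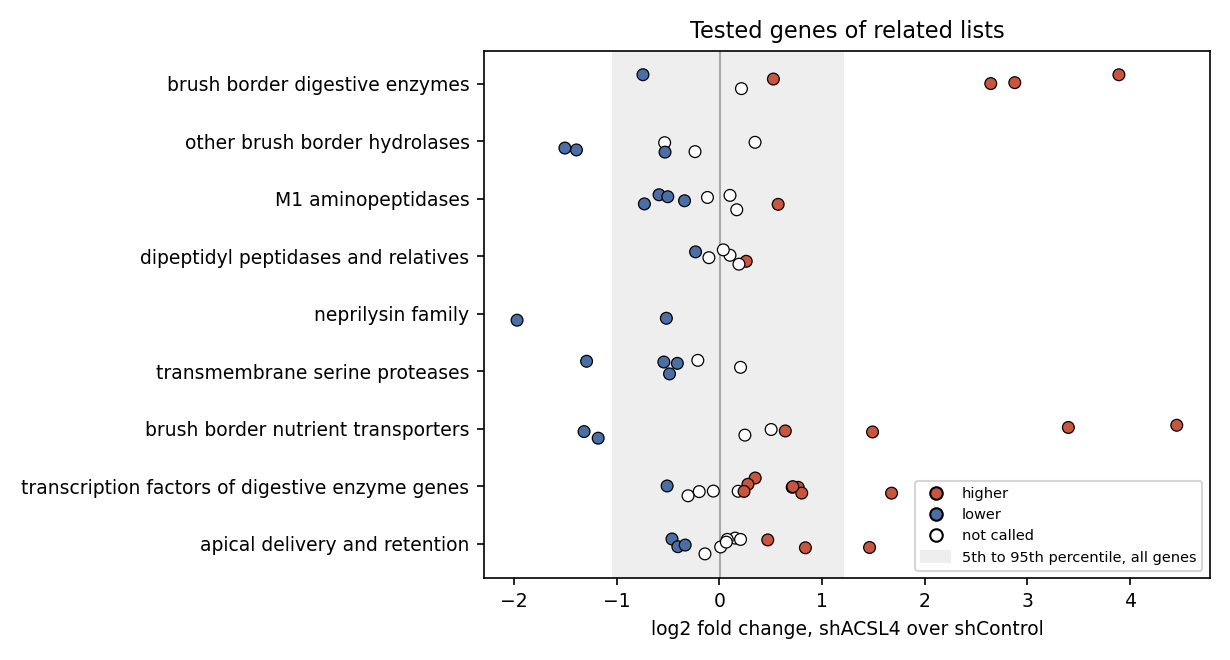
Log2 fold change of shACSL4 over shControl (horizontal axis) of each tested gene in the enzyme list and 8 related lists; red points were called higher, blue lower, white not called, and the grey band spans the 5th to 95th percentile of all tested genes (-1.03 to 1.2). ANPEP, ALPP and SI lie right of the band, as do SLC6A20, SLC6A19, SLC3A1, PDX1 and MYO1A, MEP1A lies within it, and PHEX, TREH, MGAM2, SLC5A1, TMPRSS3 and SLC2A5 lie left of it.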

How the data were processed

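The 9 members, the related lists and the rule for named genes were chosen with earlier results of these data known. That rule took all members, a set of fixed relatives and up to 3 called genes per list with the largest log2 fold change, 50 or more counts on average and no overlap between groups. The submitters' processing notes name CASAVA, HISAT2 and GRCh38 (hg38) and give no versions. How reads were counted, and whether by strand, is not given in the sources used here. The authors deposited raw read counts per gene and FPKM per library, whose library size was found to be the median-of-ratios size factor times a constant. The authors also deposited group mean signal (counts over size factors), log2 fold changes and p-values; the log2 fold changes are printed once, and no test uses them. The control columns are named NC; they were taken as shControl, being the only group beside shACSL4, and matched by number.

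Here genes were kept by filterByExpr, scaled by TMM and tested by the quasi-likelihood test of edgeR 4.0.16 (R 4.3.3) with no covariate, with Benjamini-Hochberg adjustment over 15694 genes. CPM below the filter use the same scaled sizes. Totals of 14740383 to 17620630 counts make 3 counts equal to 0.171 to 0.202 CPM; reads amplified by PCR without molecular identifiers are no independent molecules, so intervals cover counting error only. No pair of libraries in a group agreed within sampling noise (chi-square per degree of freedom 4.25 to 17.9). Alternatives changed the tool (DESeq2 1.42.0; limma-voom from limma 3.58.1), the scaling (median of ratios; library size alone), the filter (any gene with 1 count; genes averaging 50 counts or more; coding genes), the unit (limma-trend on log2(FPKM + 1)), the design (replicate number as a block), the null (a fold of 1.2) and the libraries (each left out once). Motifs were searched in RefSeq start windows (GRCh38.p14), and shared stretches in GENCODE release 29 transcripts. Some genes that the naming rule covers are not reported here.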

Additional observations from a re-analysis of the deposited data

How the results depend on the processing

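Of the 9 enzymes, 5 were called, 4 higher and 1 lower, under 15 of 16 alternatives. With a mean of at least 50 counts, which leaves ALPI, ALPP and SI out of the test, 3 were called, 2 of them higher. Leaving out each library in turn gave 5 calls, 4 higher and 1 lower, each time. ALPP and SI passed the count filter through their shACSL4 libraries alone, so this count is a description and its stability is no support. ANPEP, DPP4 and MEP1A kept direction and call under all 16, with log2 fold changes of 1.59 to 3.03, 0.46 to 0.64 and -0.84 to -0.62. ALPI was not called under any of 15 (0.06 to 0.42). Over all genes, 4650 were called against a fold of 1.2 (2441 higher, 2209 lower) in place of 7400, and 6122 to 7251 with a library left out. With the replicate block, 7414 genes and 5 enzymes were called, and no call of an enzyme changed. Deviations of same-numbered libraries correlated at 0.0623, -0.00128 and 0.00753, and not every library correlated best with its own number. The labels state no pairing. With no reference for truly paired libraries, these values cannot show whether same-numbered libraries shared a preparation. Depth limits the values of ALPP and SI, and LCT, MGAM, MEP1B, ENPEP and ALPG lay below the filter.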
